A study of Sus scrofa domesticus with 4 samples.

Results

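The transcripts described are those of 10 enzymes that carry glucose to lactate: HK2, GPI, ALDOA, TPI1, GAPDH, PGK1, ENO1, PKM, LDHA and LDHB. Their probes were found through the RefSeq accession that the array design gives each probe, and 30 of 43603 probes were named in this way. These 30 probes belonged to 7 of the 10 genes, among 3029 genes named on the array: 12 to LDHB, 6 to PGK1, 5 to TPI1, 3 to GPI, 2 to GAPDH and 1 each to LDHA and HK2. No probe was matched to ALDOA, ENO1 or PKM by this route, and these 3 genes were not analysed here.

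RNA came from the anterior lobe of the pituitary of 8 gilts, mature young sows of a Large White x Polish Landrace cross. The pregnant group held 4 naturally mated gilts on days 15 to 16 of pregnancy, checked by the presence of conceptuses. The cyclic group held 4 gilts killed on the same days of the estrous cycle, staged by their ovaries. On each of 4 two-colour arrays a pregnant and a cyclic animal were hybridised together, taken as 4 independent pairs because the labels count 8 gilts. By the samples' dye labels Cy3 marked the pregnant RNA on arrays 1 and 3 and the cyclic RNA on arrays 2 and 4, with Cy5 on the partner, whereas the text of the labelling protocol names Cy3 for every pregnant sample. The dye labels were followed, and the log2 ratios of the authors' value table are turned by the same labels. The other reading turned the sign of 16 of the 28 tested probes, and its values are given for the probes that the results turn on.

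Glycolysis splits glucose into pyruvate in the cytosol and yields ATP and NADH without oxygen. Hexokinases trap glucose as glucose 6-phosphate, and the isomerase GPI turns it into fructose 6-phosphate. After a further phosphorylation aldolase cleaves the sugar into triose phosphates, and TPI1 interconverts these. GAPDH, PGK1, the enolase and the pyruvate kinase then carry the trioses to pyruvate, and lactate dehydrogenase, a tetramer of LDHA and LDHB subunits, reduces pyruvate to lactate and restores NAD. Several of these genes, GAPDH above all, are widely used as reference transcripts in expression studies.

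Markers of the gland's hormone-secreting cells were read in every animal, with 7 of 7 hormone genes well above background. OXT, taken as a marker of the posterior lobe, was also above background in every animal, and AVP was so in 1 of 4 pregnant and 2 of 4 cyclic animals. Between 50.4% and 60.4% of spots were well above background in the pregnant channels and between 52.5% and 66.5% in the cyclic channels, and 0 spots were saturated. Ratios are log2 of pregnant over cyclic. The standard error of the limma fit (SE) is what remains after a dye effect fitted for each probe, and can be smaller than the spread between arrays. The number of arrays limits the precision. Where an array is left out, the dye effect is still fitted. The only array left of its dye orientation then weighs as much as the others together.

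Glycolytic transcripts stood on both sides of 0, and no member passed a threshold. Of the 30 probes, 29 had signal well above background in 4 or more of the 8 channels (4 arrays with a red and a green channel each), and 28 of these were measured on all 4 arrays and tested. Their estimates were above 0 for 14 probes and below 0 for 14, with a median of 0.00, against -0.01 over all 25138 tested probes. By limma with Benjamini-Hochberg adjustment 0 of 28 passed an adjusted p of 0.05, where 0 of 25138 probes (0%) did so. The looser threshold, an unadjusted p under 0.05 and a difference of 1.2-fold or more, was passed by 0 of 28, where 1972 of all probes (7.84%) passed, 3.35% higher and 4.5% lower in pregnant gilts, and 0 of 28 passed at an unadjusted p under 0.05 alone, where 2012 (8%) did. The ratio had 1 sign on all 4 arrays for 5 of 28 probes, against 14.6% of all probes. These were 2 TPI1 probes below 0, where 7.75% of all probes were so, and 1 PGK1 and 2 LDHB probes above 0, where 6.81% were. Levels of the 4 pregnant and the 4 cyclic animals overlapped for 28 of 28 probes, and they did not overlap for 2.12% of all probes. In these bulk samples, fewer cells of a type and less RNA per cell cannot be told apart.

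**Figure D1:**
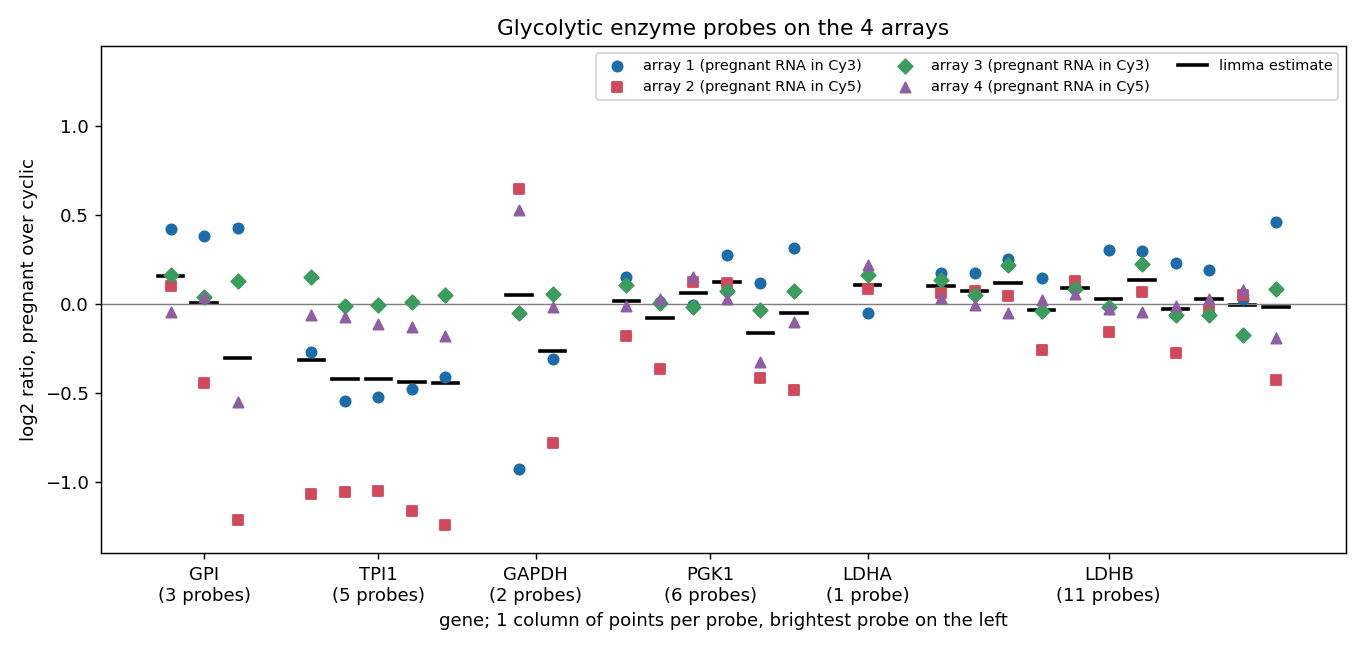
Log2 ratio of pregnant over cyclic (vertical axis) for each of the 28 tested probes, grouped by gene and ordered by brightness; the coloured points are the 4 arrays and the black bar is the limma estimate. The 5 TPI1 probes repeat one pattern, with array 2 lowest, whereas the 2 GAPDH probes oppose each other on array 2 and the 11 LDHB probes lie near 0.

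Of the enzymes that trap and isomerise glucose, HK2, the insulin-responsive hexokinase of muscle and fat, gave no usable signal. Its probe had raw spot intensities of 67, 46, 73 and 43 in the pregnant animals of arrays 1 to 4, and of 57, 73, 47 and 67 in the cyclic animals. The local background lay between 29 and 34.5 in the pregnant and between 27.5 and 43 in the cyclic channels. HK2 was not well above background in 8 of 8 channels, so no ratio is given. HK1, the constitutive hexokinase of brain and many other tissues, was measured in its place and is given with the related genes.

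GPI, the glucose 6-phosphate isomerase, differed more between its own probes than between the groups. Its brightest probe had log2 normalized intensities of 15.49, 14.84, 14.92 and 15.12 in the pregnant animals of arrays 1 to 4, against 15.07, 14.74, 14.76 and 15.16 in the cyclic animals. The pregnant animal was the higher of the pair on arrays 1 to 3, and the groups overlapped. The estimate was 0.16 ± 0.11 (SE, 4 arrays, limma adjusted p = 0.661), with a 95% confidence interval from -0.11 to 0.43.

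The 3 GPI probes agreed on array 1, between 0.38 and 0.43, and on array 3, between 0.04 and 0.16. On array 2 they stood at 0.10 for the brightest, -0.44 for the next and -1.21 for the dimmest, a 2.48-fold range for 1 transcript. On array 4 the dimmest probe was again apart at -0.55, against -0.05 and 0.04. Estimates of the other probes were 0.00 ± 0.13 and -0.30 ± 0.15, and the mean over the 3 probes was -0.05 ± 0.12 (limma adjusted p = 0.919). The dimmest probe had an unadjusted p of 0.0885. It passed the looser threshold without array 4, where array 2 weighed most, at -0.47, and 3235 of 25138 probes passed there. In a fit of the separate channels it passed at -0.30, where 2642 probes did. With background parameters from all spots it stood at 0.0049, and the brightest probe passed that threshold at 0.29. With 1 dye orientation on every array the 3 probes would all lie above 0, at 0.13, 0.20 and 0.58, the dimmest past the looser threshold (unadjusted p = 0.0193). The sign given to GPI differed between probes in the fit as reported. For the dimmest and the second brightest probe it also differed between settings, the second brightest standing at -0.13 with background parameters from all spots.

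TPI1, the triose phosphate isomerase, was the member gene with the lowest estimates, and its low ratios were those of arrays 1 and 2. Its brightest probe had log2 intensities of 13.29, 12.84, 13.68 and 13.49 in the pregnant animals, against 13.56, 13.90, 13.53 and 13.55 in the cyclic animals. On array 2 the pregnant animal had the lowest level of the 8 animals and the cyclic animal the highest, while on arrays 3 and 4 the pairs lay within 0.15 of each other on the ratio scale. The estimate was -0.31 ± 0.19 (limma adjusted p = 0.639), with an interval from -0.79 to 0.17. Arrays 1 and 2 also had the wider ratios over all tested probes with a mean log2 intensity between 12 and 14. Their standard deviations were 0.42, 0.45, 0.34 and 0.29 on arrays 1 to 4. Of all tested probes 22.6% lay lower than this TPI1 probe on array 1 and 3.29% on array 2.

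The other 4 TPI1 probes repeated this pattern closely. Over the 5 probes ratios lay between -0.54 and -0.27 on array 1, between -1.24 and -1.05 on array 2, between -0.01 and 0.15 on array 3, and between -0.18 and -0.06 on array 4. The mean standard deviation between probes was 0.0768, while the 4 array medians had a standard deviation of 0.485. Among the 1191 genes with more than 1 tested probe, 10.7% had probes closer together than those of TPI1. Estimates of the 5 probes ran from -0.45 to -0.31, all below 0, with unadjusted p between 0.0708 and 0.157 and limma adjusted p between 0.605 and 0.639. The probes share their animals, so their agreement adds no replicates.

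Without array 2 the 5 TPI1 estimates lay between -0.19 and -0.06, and without array 1 between -0.33 and -0.21. Without array 4 they lay between -0.71 and -0.56, and 5 of 5 passed the looser threshold (limma unadjusted p between 0.00889 and 0.0182). Of all 25138 tested probes 3235 passed it there. Without array 4, array 2 was the only array with pregnant RNA in Cy5, so it weighed more than arrays 1 and 3. Without array 3, 1 of 5 TPI1 probes passed, where 2311 of all probes did. If the pregnant RNA had carried Cy3 on every array, as the protocol's text reads, the 5 estimates would lie above 0, between 0.14 and 0.27.

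Markers of other cell types went different ways on the arrays where TPI1 was low, and the genes named from them were chosen after their values were seen. OXT stood at -0.67, -0.62, 0.02 and -0.16 on arrays 1 to 4, and PCSK2, a prohormone convertase strong in the intermediate lobe, at 1.43, -0.55, -0.82 and 1.56. PCSK2 was dim, with a mean log2 intensity of 7.63 against 12.57 for OXT, and was well above background in 7 of 8 channels. Of 4 stromal markers 2 were tested: COL1A2, a type I collagen chain, stood at -0.79, -0.81, 0.40 and -0.57, and ACTA2, smooth muscle actin, at -0.28, -0.66, 0.17 and -0.05. Of 3 striated muscle markers 2 were tested: CKM, the muscle creatine kinase, stood at -0.49, -0.89, -0.19 and -0.13, and ACTA1, skeletal muscle actin, at 0.25, -0.99, 0.41 and -0.24, with MYH2 not above background in most channels. CKM passed the looser threshold lower in pregnant gilts, at -0.42 ± 0.16 (unadjusted p = 0.039), where 4.74% of named genes did so, and 5 of its 9 other probes shared the sign. The median of 3 endothelial genes was -0.29, 0.25, -0.34 and 0.03 on arrays 1 to 4. On array 2 these genes differed, with VWF at -0.18, PECAM1 at 0.25 and CDH5 at 1.41, and the 1 other CDH5 probe had an estimate of opposite sign. FABP4, the 1 tested adipose marker, stood at -0.68, 0.92, -0.91 and 0.14, with a fitted dye effect of 0.66 beside an estimate of -0.13. The signs of the endothelial median and of FABP4 followed the dye. The median of 3 macrophage genes was -0.03, -0.18, 0.13 and -0.26, and that of 2 folliculostellate genes was -0.20, -0.04, -0.11 and -0.06. Of the 7 hormone genes of the gland's own cells, 6 had estimates below 0 and 1 above, with a median of -0.31. Their array medians were -0.55, 0.63, -0.84 and -0.12. LHB alone passed the looser threshold, lower, at -0.42 ± 0.15 (limma unadjusted p = 0.0338), with ratios of -0.78, -0.60, -0.19 and -0.12. Summed over the tested markers, linear intensities lay between 10342 and 13284 in pregnant and between 10870 and 17727 in cyclic animals for stroma, between 5145 and 8763 in pregnant and between 6526 and 10060 in cyclic animals for striated muscle, and between 3503 and 9574 in pregnant and between 5014 and 9972 in cyclic animals for OXT and PCSK2. The part of these cells in the TPI1 ratios was not tested.

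GAPDH, the glyceraldehyde 3-phosphate dehydrogenase, was read by 2 probes that contradicted each other. Both were above a mean log2 intensity of 16, the range of the brightest 435 tested probes, and they were the only members in it. The brighter had log2 intensities of 16.62, 17.87, 17.55 and 17.69 in the pregnant animals, against 17.55, 17.22, 17.60 and 17.16 in the cyclic animals. The dimmer had 16.91, 16.48, 16.88 and 16.99 in the pregnant animals, against 17.22, 17.26, 16.83 and 17.01 in the cyclic animals. The groups overlapped for both probes.

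On arrays 1 to 4 the brighter GAPDH probe gave ratios of -0.93, 0.65, -0.05 and 0.53, and the dimmer gave -0.31, -0.78, 0.05 and -0.02. They lay 2.68-fold apart on array 2 and 1.08-fold apart on array 3. On the brighter probe red exceeded green on 4 of 4 arrays, with a fitted dye effect of 0.54 (log2, red over green) beside an estimate of 0.05 ± 0.17 (limma adjusted p = 0.941). The dimmer probe had a dye effect of -0.13 and an estimate of -0.26 ± 0.16 (limma adjusted p = 0.637). That probe stood at -0.07 without array 2. Without array 4, where array 2 weighed most, it stood at -0.45. It passed the looser threshold there (limma unadjusted p = 0.0327), as did 3235 of 25138 probes. Its array profile had the order of the TPI1 probes, with array 2 lowest, array 1 next and arrays 3 and 4 near 0. Of the multi-probe genes 98.1% had probes closer together than those of GAPDH.

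The median ratios of all 435 probes in this bright range were -0.24, 0.14, -0.27 and 0.15 on arrays 1 to 4, signs that followed the dye, while in every dimmer range they lay within 0.07 of 0. Without array 3 the brighter probe stood at -0.17 and without array 1 at 0.27, and with 1 dye orientation on every array it would stand at -0.54, past the looser threshold, and the dimmer probe at 0.14. With background parameters from all spots the brighter probe stood at 0.46 and the dimmer at 0.095. The mean over both probes was -0.11 ± 0.14 (limma unadjusted p = 0.486), with an interval from -0.47 to 0.25.

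**Figure D2:**
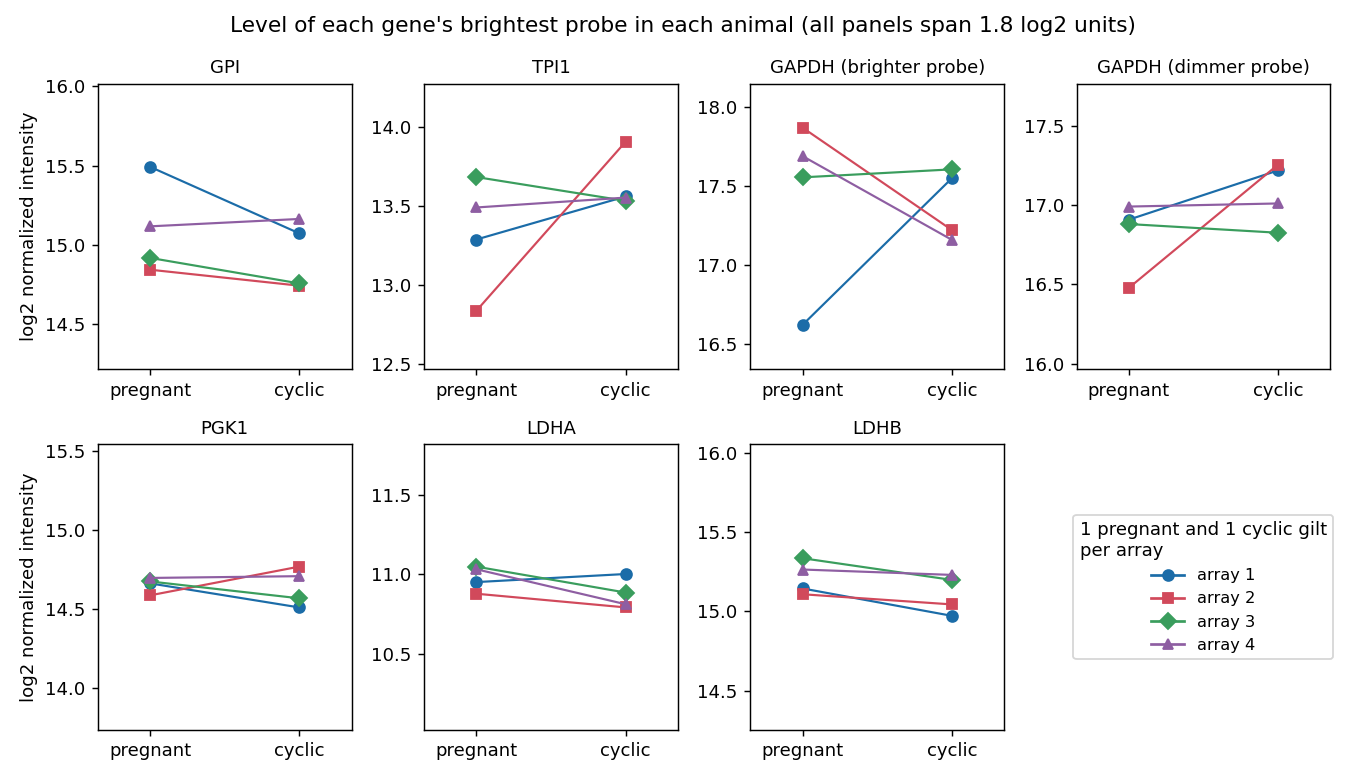
Log2 normalized intensity of the brightest probe of each of the 6 tested genes, and of the dimmer GAPDH probe, in each animal, pregnant on the left and cyclic on the right; each line joins the pair hybridised on 1 array, and every panel spans 1.8 log2 units. The TPI1 line of array 2 is the steepest of its panel, with 12.84 in the pregnant and 13.90 in the cyclic animal, the GAPDH probes cross in opposite ways, and the PGK1, LDHA and LDHB pairs are nearly level.

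PGK1, the phosphoglycerate kinase that makes the first ATP of the pathway, was level between the groups within the error. Its brightest probe had log2 intensities of 14.66, 14.59, 14.67 and 14.70 in the pregnant animals, against 14.51, 14.77, 14.57 and 14.71 in the cyclic animals. The 4 pregnant animals lay inside the range of the cyclic animals. The estimate was 0.02 ± 0.10 (limma adjusted p = 0.968), with an interval from -0.24 to 0.27.

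Of the 6 PGK1 probes 3 had estimates above 0 and 3 below, from -0.16 to 0.12, with limma adjusted p between 0.640 and 0.968. Array 2 spread them most, from -0.48 to 0.12, and array 3 least, from -0.04 to 0.11. The second brightest probe was set apart by array 2 alone, at -0.36 against ratios between 0.01 and 0.03 on the other arrays. The mean over the 6 probes was -0.01 ± 0.10, with an interval from -0.27 to 0.24. The lowest probe, at -0.16, would stand at 0.21 with 1 dye orientation on every array.

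**Figure D3:**
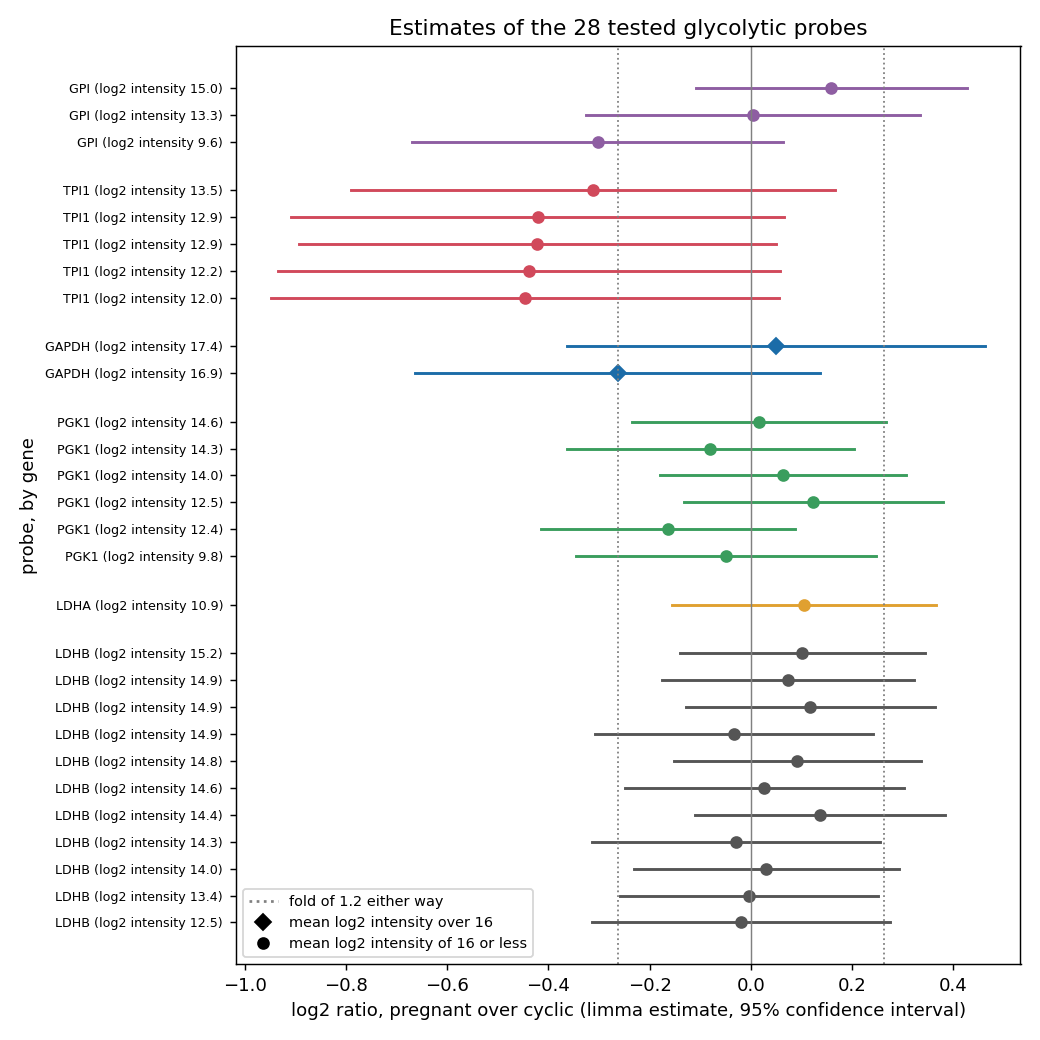
Limma estimates of the log2 ratio of pregnant over cyclic with 95% confidence intervals (horizontal axis) for the 28 tested probes, grouped by gene, with diamonds for the 2 GAPDH probes above a mean log2 intensity of 16 and dotted lines at a fold of 1.2. All 28 intervals hold 0, and the TPI1 intervals reach lowest.

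By their brightest probes the lactate dehydrogenase subunits had pairs close together on every array. LDHA, the subunit that prevails in muscle and in tissues that make lactate, had log2 intensities of 10.95, 10.88, 11.05 and 11.03 in the pregnant animals, against 11.00, 10.79, 10.89 and 10.81 in the cyclic animals. The pregnant animal was the higher on arrays 2 to 4, by 0.09, 0.16 and 0.22, and the lower on array 1, by a ratio of -0.05. The estimate of its 1 probe was 0.10 ± 0.10 (limma adjusted p = 0.764), with an interval from -0.16 to 0.37, and with 1 dye orientation throughout it would be -0.05.

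LDHB, the subunit that prevails in heart, was covered by 12 probes, the most of any member. Its brightest probe had log2 intensities of 15.14, 15.11, 15.34 and 15.26 in the pregnant animals, against 14.97, 15.04, 15.20 and 15.23 in the cyclic animals. The pregnant animal was the higher on 4 of 4 arrays, by 0.17, 0.06, 0.14 and 0.03, and the groups overlapped. The estimate was 0.10 ± 0.10 (limma adjusted p = 0.755), with an interval from -0.14 to 0.35. One further LDHB probe was above 0 on all 4 arrays, at 0.09 ± 0.10.

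Over the 11 tested LDHB probes, 7 estimates were above 0 and 4 below, from -0.03 to 0.14, with a median of 0.03 and limma adjusted p between 0.678 and 0.994. On array 1 11 of 11 probes were above 0, between 0.03 and 0.46, while on array 2 6 were above and 5 below. The dimmest LDHB probe had the widest spread, at 0.46 on array 1 and -0.43 on array 2. Its estimate was -0.02, and with 1 dye orientation on every array it would be 0.29, past the looser threshold. The mean over the 11 probes was 0.04 ± 0.10, with an interval from -0.21 to 0.30. The remaining probe was untested because its spot on array 3 was marked as an outlier, and it stood at 0.15, -0.12 and 0.08 on arrays 1, 2 and 4.

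The accession of the 12 LDHB probes belongs, in the RefSeq annotation of Sscrofa11.1, to a locus of 1280 bases with 1 transcript, while another gene with the symbol LDHB has a locus of 20287 bases and 2 transcripts. Which of the loci the probes read was not tested. For 21 of the 28 probes of all members, the 95% interval lay within a 1.5-fold difference either way. This count was not taken over all probes. The median standard error was 0.110 for the member probes and 0.118 for all tested probes.

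The spread between probes of a gene can be set beside that between arrays. For LDHB the probes of an array had a mean standard deviation of 0.124 and the array medians one of 0.0851. For PGK1 these were 0.155 and 0.176, for GPI 0.267 and 0.360, and for GAPDH 0.476 and 0.368. TPI1 was the 1 gene of these 5 whose arrays differed several times more than its probes. Over all 1191 multi-probe genes the median standard deviation between probes was 0.169, 0.173, 0.123 and 0.130 on arrays 1 to 4. The fitted dye effect was larger in size than the pregnant over cyclic estimate for 15 of the 28 member probes. The share over all probes was not taken, so this count does not set the members apart.

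Related genes of glucose metabolism were read from 8 lists, of whose 127 genes reported here 46 had a tested probe. By the brightest probe 23 were above 0 and 23 below, where 48.6% of the 2406 named genes were above 0. At the looser threshold 2 of these 46 genes were higher, where 8.52% of the named genes passed, 3.78% higher and 4.74% lower, and 0 of 46 passed limma's adjusted threshold. The median of the 6 tested members by their brightest probe was 0.08, and the medians of the 8 lists lay between -0.08 and 0.11.

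Among the 5 other glycolytic isoforms tested, HK1 had the lowest p at 0.22 ± 0.11, above 0 on 4 of 4 arrays (limma adjusted p = 0.611), and its 1 other probe shared the sign. Of 4 transporters of glucose and lactate, BSG, the chaperone of the lactate transporters, had the lowest p at -0.30 ± 0.15, with array 2 at -0.83. Of 5 genes of pyruvate dehydrogenase and its regulation, PDK4, the kinase that shuts the enzyme off in fasting, had an estimate of -0.39 ± 0.38, with array 4 at -1.32 and array 2 at 1.10. In these 3 lists 0 genes passed the looser threshold in either direction.

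Of the 3 genes tested of the pentose phosphate pathway, RPIA, the ribose 5-phosphate isomerase, stood at 0.21 ± 0.12, and 0 passed the looser threshold. Of 9 genes of gluconeogenesis and glycogen, PGM1, the phosphoglucomutase that links glycogen to glycolysis, passed it at 0.81 ± 0.23 (unadjusted p = 0.0151, limma adjusted p = 0.605). PGM1 stood at 0.57, 0.82, 1.76 and 0.09 on arrays 1 to 4, and its 1 other probe had the opposite sign. Of 5 genes of the NADH shuttles, GPD1, the cytosolic glycerol 3-phosphate dehydrogenase, stood at -0.28 ± 0.19 with array 2 at -1.01, and 0 passed.

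Of 7 citrate cycle genes reported, SDHD, a membrane anchor of succinate dehydrogenase, passed the looser threshold at 0.34 ± 0.10 (unadjusted p = 0.0146, limma adjusted p = 0.605). SDHD was above 0 on 4 of 4 arrays, between 0.24 and 0.41, and its 4 other probes shared the sign. With 1 dye orientation on every array, SDHD would stand at -0.07.

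Of 8 genes of the response to low oxygen, a pathway that raises many glycolytic transcripts, 0 passed the looser threshold. ADM, adrenomedullin, had the lowest p at -0.19 ± 0.18, and stood at -1.70, 1.15, -0.85 and 0.66 on arrays 1 to 4, so that its sign followed the dye.

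**Figure D4:**
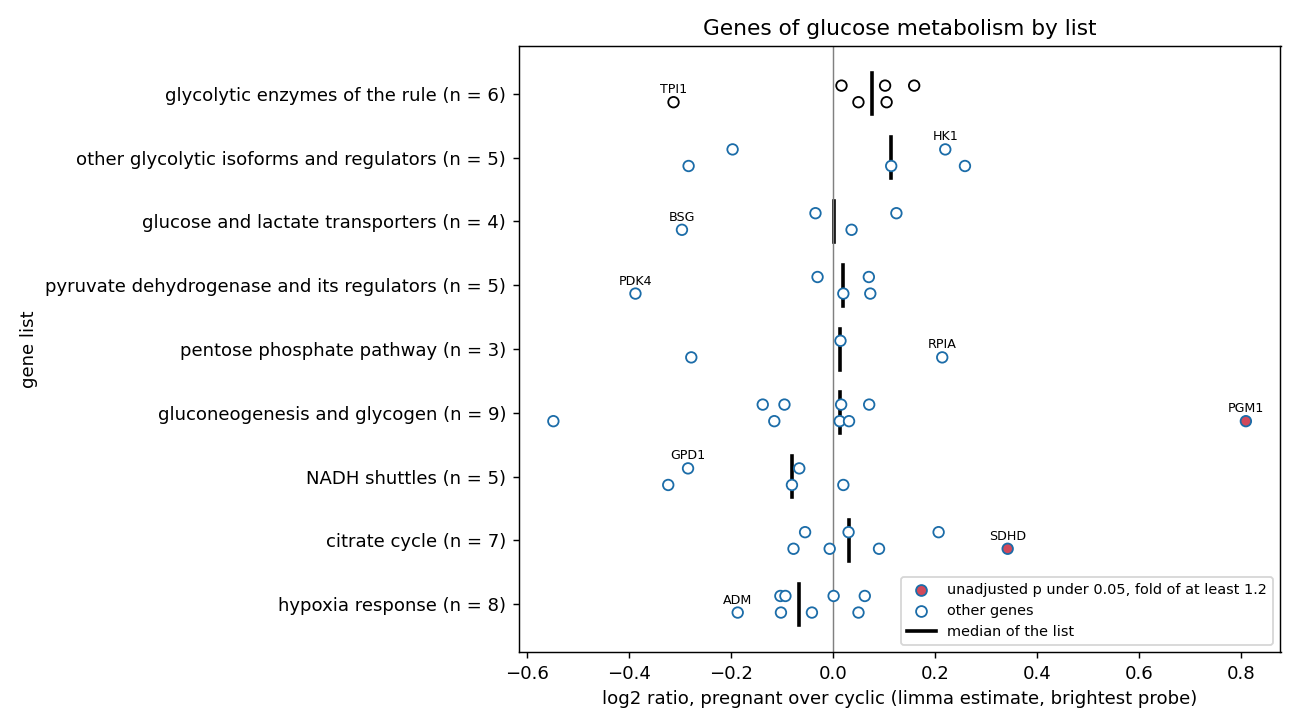
Limma estimate of the log2 ratio of pregnant over cyclic (horizontal axis) for the brightest probe of each tested gene, by list (rows), with the median of each list as a bar and red fill for genes past the looser threshold. The 6 glycolytic genes lie between -0.31 and 0.16 with 0 filled points, and PGM1 at 0.81 is the farthest from 0.

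The mean ratio over the brightest probes of the 6 tested genes was -0.08, -0.06, 0.11 and 0.11 on arrays 1 to 4. The 5 named genes whose array ratios came nearest to it, by root mean square difference over 4 arrays, were MMGT1, IFN-DELTA-6, SCARB1, DLL4 and CDC42, with differences between 0.0427 and 0.0576. The members themselves differed from their own mean by 0.0961 for LDHA to 0.593 for GAPDH. The 5 genes were picked as the nearest of all named genes, so their closeness is no measure of the enzymes.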

How the data were processed

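Per the file headers, both dyes were read with version 10.7.3.1 of Agilent's Feature Extraction. For every spot the deposited intensity values are medians over its pixels and over the background around it, and processed intensities after background subtraction and dye normalization, per the file headers. The deposited log10 ratios of the scanner software were not used. The authors' value table holds log2 ratios. For 43553 probes it equalled the log2 ratio of the processed signals, turned to pregnant over cyclic by the samples' dye labels. Its column medians were 0.150, -0.0102, 0.0650 and -0.0726, so no further centring was found.

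Software was limma 3.58.1 under R 4.3.3; tables were read with data.table (release 1.17.8) and jsonlite 2.0.0. The normexp correction (offset 50) took parameters estimated without spots marked as outliers. Loess (span 0.3, 1417 control spots at weight 0) normalized each array, 26 to 63 outlier spots per array were left out, and spots of a probe were averaged. Tested probes had signal well above background in 4 or more of 8 channels and a value on 4 arrays, 25138 of 43603, with lmFit and eBayes, a dye effect per probe and Benjamini-Hochberg adjustment. Channel levels were scaled between arrays (Aquantile). The brightest probe stood for a gene.

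Symbols came from RefSeq (Sscrofa11.1). The members and lists were chosen with earlier results of these data known. Per list, genes past the looser threshold (at most 4) were named besides the members, or else the gene of lowest p. The 5 genes most alike were named too. Markers named were the tested genes of 3 lists with VWF, PECAM1, CDH5, FABP4, LHB, PRL, GH1, POMC and CGA, chosen after their values were seen. On data simulated for this comparison over 25138 probes, the fit recovered 45% of 100 probes changed by 1 on the log2 scale and 71% of 100 changed by 2. Errors were drawn independently for each probe from its own residual spread, whereas real probes share animals. These shares need not hold for the real data. One gene of the lists is not reported here and is left out of their counts. The alternatives tried are background, offset, normalization, filter, dye term and orientation, probe choice, separate channels and leaving out each array.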

Additional observations from a re-analysis of the deposited data

Results flagged for a closer look

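The second brightest PGK1 probe stood at -0.36 on array 2, far from the other 3 arrays by Dixon's gap test. Chance flags about 1 in 20 such groups, and 1 of 47 probes so examined was set apart. The other 5 PGK1 probes stood between -0.48 and 0.12 on that array.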

How the results depend on the processing

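The fit as reported is itself paired, since each ratio is taken within an array that holds a pair of animals. Under 18 alternatives 0 of 25 genes followed passed limma's adjusted threshold. LDHB, HK1, RPIA and PGM1 kept their sign throughout, and the brightest TPI1 probe turned under 1 of them, a single dye orientation. That orientation gave TPI1 0.25, GAPDH -0.54, LDHA -0.049, BSG 0.17, GPD1 0.27, SDHD -0.066, OXT 0.034, PCSK2 -0.0985, COL1A2 0.25, ACTA2 0.15, CKM 0.083, ACTA1 0.47, MMGT1 -0.027, SCARB1 -0.023 and DLL4 -0.012. It left 24 of 28 member probes above 0 and 3 past the looser threshold, where 2109 of all 25138 probes passed.

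Averaging probes gave GPI -0.046, GAPDH -0.11 and PGK1 -0.015. Loess with span 0.7 gave PGK1 -0.0012, DLL4 -1.06e-04 and CDC42 3.67e-05. Processed signals gave MMGT1 -0.0022 and CDC42 0.0089, the authors' table CDC42 0.020, median centring IFN-DELTA-6 -0.026 and background parameters from all spots SCARB1 -0.12.

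Leaving out each array in turn gave GAPDH between -0.17 and 0.27, PGK1 between -0.026 and 0.059, PDK4 between -0.99 and 0.22, ADM between -0.40 and 0.025, PCSK2 between -0.16 and 0.97, ACTA1 between -0.33 and 0.046, MMGT1 between -0.014 and 0.073, SCARB1 between -0.057 and 0.10, DLL4 between -0.0054 and 0.054 and CDC42 between -0.074 and 0.060. The same exclusions gave 918 to 3235 probes past the looser threshold, 0 to 7 member probes (7 without array 4), and 0 to 7 probes past the adjusted threshold (7 without array 1).

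Background parameters from all spots left 761 probes past the looser threshold, with 6 member probes (5 of TPI1 and 1 of GPI). Separate channels called 5 member probes (4 of TPI1 and 1 of GPI) among 2642 of all 25138 probes. The adjusted threshold was passed by 2 probes with offset 16, 3 with processed signals and 4 with separate channels, with 0 member probes among them. Of the calls at the looser threshold 42.6% were higher in pregnant gilts in the fit as reported, 21.2% with median centring, 59.5% without array 2 and 32.9% without array 4. The cause of these changes was not tested.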
